A study of Sus scrofa with 19 samples.

Results

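Potassium channels let potassium ions leave the cardiomyocyte, which sets its resting potential and ends each action potential. Here the genes of their subunits were followed in bulk RNA-seq counts of pig myocardium. The members were all genes whose symbol in the deposited table of comparisons starts with KCN, joined to the count files by Ensembl gene ID. There were 48 such genes among the 14744 genes of that table and the 25879 genes of the count files. They comprised 7 inward rectifier genes, 17 voltage-gated genes, 7 two-pore genes, 5 calcium-activated and related genes, and 12 genes of beta and accessory subunits. A further 41 KCN symbols of the count files stood outside the table, with at most 7 counts in any library.

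The 19 libraries came from 19 pigs described as female large whites, and 1 library was made per pig. The 5 DOX pigs received doxorubicin and the 5 MYO pigs Myocet, its liposomal form, at 60 mg/m2 in each of 3 cycles, and their anterior wall was sampled 3 months after the first injection, when the experiment was ended early. The 3 RemoLV pigs underwent a 90 min balloon occlusion of a coronary artery with reperfusion, and the remote posterior wall was sampled after 6 months. The 3 Hyper pigs carried a stent that narrowed the aortic isthmus, and 3 pigs served as Control. The labels call the Control pigs sham-operated and the methods call them untreated. Hyper and Control were sampled in the anterior wall after 6 months. The wall sampled cannot be told apart from the infarct model where RemoLV is compared with other groups. The DOX and MYO data came from an earlier study and an earlier time of sampling, and neither can be told apart from the effect of the drugs in a comparison with the other groups. The labels name an aortic stenosis for Hyper in 1 field and a coronary stent in another.

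The names of the samples in the deposits disagreed. Every library could be matched to 1 column of the authors' table by the order of its values, and in 8 of 19 columns the name gave another group than the count file. RemoLV and Control trade places in all their columns, as do the libraries DOX 5 and MYO 1. Nothing in the files decides between these names. The paper groups RemoLV with Hyper, apart from Control, and reports many changed genes for Hyper. By file label, 0% of all genes tested differed between Hyper and Control at an adjusted p of at most 0.05 (edgeR). By table name, 18.7% were higher and 17.2% lower in Hyper, and none differed between RemoLV and Hyper. Which names are right was not tested. Groups below are by file label unless the table names are mentioned. The 3 libraries labelled RemoLV stood apart. Their summed level of 9 atrial cardiomyocyte markers was 11650 to 16270 CPM (counts scaled to the effective library size) against 807 to 3017 CPM in all others, their 10 ventricular markers summed to 25550 to 29840 against 46470 to 75680 CPM, and their 10 fibroblast markers to 11160 to 12870 against 1693 to 7416 CPM. Markers of all cardiomyocytes (26900 to 28200 against 28700 to 46060 CPM) and of endothelium (826 to 908 against 972 to 1323 CPM) were lower there without overlap. All 7 tested atrial markers were called higher in RemoLV than in Control, with MYL4 at 7169 against 1.90 CPM, and 9 of 10 ventricular markers lower. The ventricular sum was carried by MYH7 (23761 against 42794 CPM), while MYL2 stood at 58 against 15850 CPM and IRX4 had 4 counts in RemoLV against 500 in Control. Against Control, the drug groups were higher as well, without overlap: fibroblast markers summed to 5002 to 7416 CPM in DOX and 4823 to 6936 in MYO against 2247 to 3626, and atrial markers to 1913 to 3017 and 1499 to 1962 against 807 to 1273. MYL7 carried this atrial sum (1514 CPM in DOX and 1056 in MYO against 92.9), and 2 of the 7 tested atrial markers were called, with a median log2 fold change of the list of -0.11 and -0.08. Y-linked genes, which female pigs lack, summed to 172 to 252 CPM in DOX and MYO and to at most 0.226 CPM in the other groups. The part of these differences in the results for the potassium channel genes was not tested. Library totals were 9527710 to 20370209 counts.

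Of the 48 members, 36 passed the filter on low counts and were tested among 13552 genes. All 7 inward rectifiers passed, as did 12 of 17 voltage-gated, 5 of 7 two-pore, 3 of 5 calcium-activated and 9 of 12 beta and accessory genes. The 12 members that were not tested, KCNA3, KCNC1, KCND3, KCNE5, KCNH4, KCNIP1, KCNIP3, KCNK13, KCNK5, KCNN1, KCNQ3 and KCNU1, are given only by their levels. Without the libraries labelled RemoLV, KCNA7, KCNAB3, KCNH7, KCNK2 and KCNK3 would have failed the filter, as would KCNA7, KCNAB3, KCNK12 and KCNK7 without both drug groups, KCNC4 and KCNK7 without Control, and KCNK7 without Hyper. A member that passed only through the group where it is high had to differ, so the calls of KCNH7, KCNK2, KCNK3, KCNK7, KCNK12 and KCNC4 are descriptions and no support for a difference. A call below means a Benjamini-Hochberg adjusted p of at most 0.05 over all genes tested in the edgeR quasi-likelihood model of the 5 groups, and values after ± are standard errors for log2 fold changes and SD for CPM.

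All pore-forming potassium channels share a selectivity filter, a short stretch of the pore that passes potassium and holds back sodium, whereas beta subunits do not line the pore. The codons of this filter were searched in frame in the RefSeq models of 47 members (Sscrofa11.1; KCNH4 was not matched). The search asked for a threonine codon (ACN) or serine codon (TCN, or AG followed by T or C), any codon, a glycine codon (GGN), a codon of tyrosine or phenylalanine (TA or TT followed by T or C) or of leucine (CTN), and a glycine codon, on the coding strand. The serine codons were added after a first search. All 35 pore-forming members held a match and none of the 12 beta and accessory members did, and of 19579 protein-coding genes searched in the same way 5.67% held one. Each of the 7 two-pore members held at least 2 matches. KCNK13 held 3, the first at codon 9, and the voltage-gated KCNH2 held 2. Where the matches lie relative to the pore domains was not checked. The stretches of some of the genes on which the results below turn are shown, 30 bases each, 5′ to 3′ on the coding strand, with the 15 bases of the filter codons in capitals.
KCNJ2: cagacgACCATCGGCTACGGCttcaggtgt
KCNJ4: cagacgACCATCGGCTACGGCttccggtgc
KCNJ3: gaggccACCATCGGCTATGGCtaccgttac
KCNJ5: gagacgACCATCGGGTACGGCtttcgggtg
KCNJ8: caagtgACAATTGGCTTTGGAgggagaatg
KCNK3: ctcaccACCATCGGCTTCGGCgactacgtg
KCNH7: ttaacaAGTGTAGGATTCGGCaatgtgtct

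For KCNK3 the second match is shown. The stretches lie in coding exons at chr12:10356369-10356398 on the minus strand (KCNJ2), chr5:9547576-9547605 on the plus strand (KCNJ4), chr15:62264691-62264720 plus (KCNJ3), chr9:55856903-55856932 plus (KCNJ5) and chr5:51702771-51702800 plus (KCNJ8). Those of the other genes lie at chr3:112323344-112323373 minus (KCNK3) and chr15:69125188-69125217 minus (KCNH7). KCNJ2 and KCNJ4 were identical at 28 of the 30 bases. KCNJ3 and KCNJ5, whose proteins join in 1 channel, were identical at 20 of 30 bases, and KCNJ8 matched each of the other inward rectifiers shown at 14 or 15 of 30.

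Compared between genes per kilobase of the longest RefSeq transcript, 9 members led in Control, with KCNJ5 at 75.8 ± 31.9 CPM per kb (n = 3), KCNE1 at 68.3 ± 6.80, KCNJ4 at 60.0 ± 21.1, KCNJ8 at 56.8 ± 1.74 and KCNIP2 at 44.6 ± 3.47. KCNJ5 and KCNE1, KCNE1 and KCNJ4, and KCNJ4 and KCNJ8 each differed by less than the SD of the more variable gene, while KCNJ8 and KCNIP2 lay farther apart than their SD. KCNJ3 (16.5 ± 4.52 CPM per kb), KCNH2 (14.1 ± 0.965) and KCNQ1 (14.0 ± 0.618) followed at a lower level, and then KCNJ2 (6.06 ± 3.09), whose transcript model is long at 15756 bases. The same 9 genes led in DOX, MYO and Hyper. In RemoLV, KCNJ5 led with 436 ± 50.1 CPM per kb, KCNK3 (41.3 ± 9.88) and KCNJ3 (37.9 ± 5.12) came next, closer to each other than the SD of KCNK3, and KCNJ2 was no longer among the first 9.

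KCNJ2 and KCNJ4, with KCNJ12, encode the strong inward rectifiers that hold the resting potential of ventricular cells. KCNJ2 stood at 71.9, 151 and 63.0 CPM in the 3 Control libraries, 59.9, 129, 145, 112 and 155 in DOX, 126, 118, 118, 123 and 127 in MYO, and 158, 158 and 97.2 in Hyper. In the libraries labelled RemoLV it stood at 3.80, 5.30 and 1.69 CPM. These 3 libraries were the lowest of all and did not overlap with any other group, while the remaining 4 groups overlapped. KCNJ2 was lower in RemoLV than in Control by a log2 fold change of -4.69 ± 0.42 (adjusted p = 2.08e-07) and than in Hyper by -5.21 ± 0.43 (adjusted p = 9.01e-08). In bulk tissue, fewer cells of a type and less RNA per cell cannot be told apart.

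KCNJ4 was likewise lowest in RemoLV, with 43.6, 44.1 and 47.6 CPM against 254, 120 and 206 in Control (log2 fold change -2.10 ± 0.28, adjusted p = 1.65e-05). It was also called higher after both drugs, where it stood at 433, 264, 262, 243 and 374 CPM in DOX and 372, 310, 305, 229 and 302 in MYO, with log2 fold changes against Control of 0.71 ± 0.25 (adjusted p = 0.0301) and 0.65 ± 0.25 (adjusted p = 0.0422). The drug groups overlapped with Control, whose lowest library, Control 2, was at 120 CPM. The call in DOX was lost without any 1 of 4 libraries and that in MYO without any 1 of 6, most of all without Control 2, where the log2 fold changes were 0.45 (adjusted p = 0.146) and 0.40 (adjusted p = 0.197). Both were also lost in a fit of the compared groups only (adjusted p up to 0.072). The call in MYO was lost with DESeq2 size factors and without the libraries labelled RemoLV as well. KCNJ2, not called in the drug groups with all libraries, was called higher there without Control 2 (log2 fold change 0.83, adjusted p = 0.0371, in DOX and 0.86, adjusted p = 0.0318, in MYO). KCNJ4 in Hyper stood at 127, 217 and 251 CPM, close to Control (log2 fold change 0.04 ± 0.27, adjusted p = 0.961).

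KCNJ12, in contrast, was highest in RemoLV, with 4.93, 6.82 and 4.81 CPM against 0.224, 0.356 and 0.353 in Control (log2 fold change 4.10 ± 0.51, adjusted p = 6.31e-06). All libraries of other groups were at or below 1.47 CPM. In DOX it stood at 0.562 to 1.47 CPM, without overlap with Control (log2 fold change 1.65 ± 0.49, adjusted p = 0.0122), and the call was lost without Control 1 (adjusted p = 0.0517). Its counts were low, 3 to 6 in Control, and near-identical copies of this gene are known in other mammals, so that reads could have been split between copies. KCNJ14, a further inward rectifier, passed no test, with 0.356 to 2.40 CPM over all 5 groups.

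**Figure D1:**
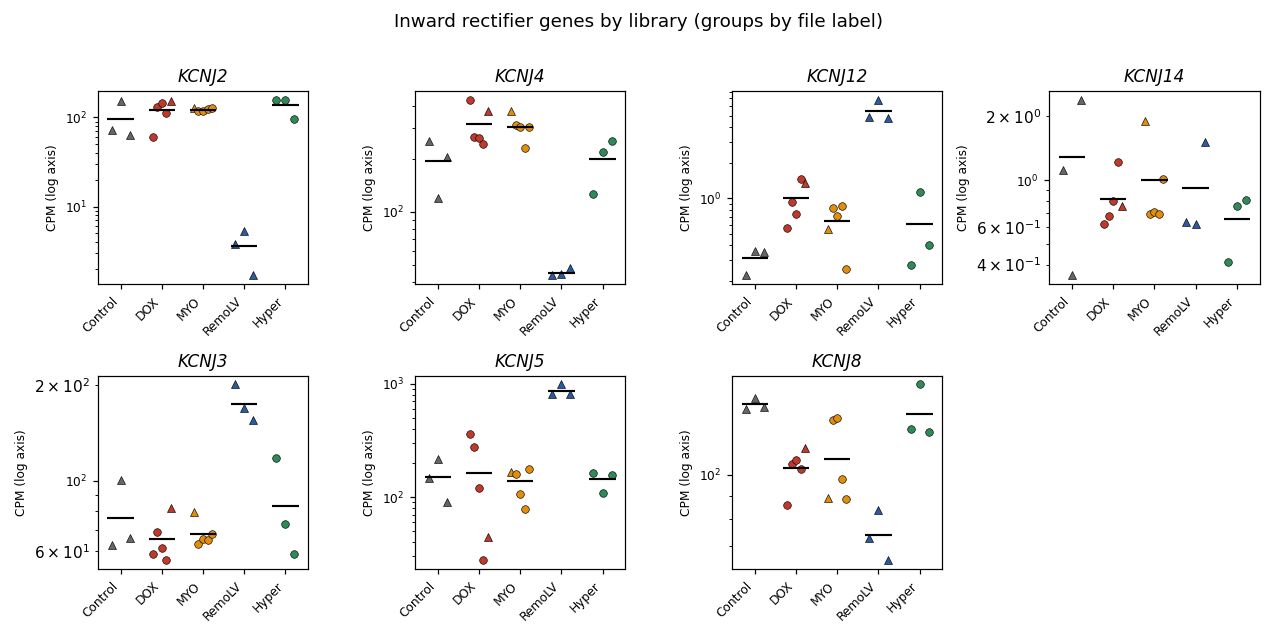
CPM of the 7 inward rectifier genes (log axes) in each of 19 libraries, with groups by file label on the x axis and a bar at each group mean; triangles mark the 8 libraries that have another group in the authors' table. KCNJ2 and KCNJ4 are lowest in RemoLV, and KCNJ12, KCNJ3 and KCNJ5 highest.

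KCNJ3 and KCNJ5 encode the subunits of the channel that acetylcholine opens in atrial and nodal cells through the M2 muscarinic receptor. KCNJ5 reached 818, 986 and 807 CPM in RemoLV, against 147, 217 and 90.2 in Control and 165, 110 and 155 in Hyper (log2 fold change against Control 2.52 ± 0.66, adjusted p = 0.00459). KCNJ5 spread widely among the DOX libraries, at 357, 274, 119, 27.9 and 44.3 CPM, and in MYO it stood at 78.9 to 177 CPM. Neither drug group differed from Control by the test (log2 fold change 0.12 ± 0.57 in DOX and -0.14 ± 0.56 in MYO). KCNJ3 reached 202, 169 and 155 CPM in RemoLV against 62.8, 100 and 66.0 in Control, again without overlap (log2 fold change 1.20 ± 0.22, adjusted p = 0.00029). In DOX, MYO and Hyper, KCNJ3 lay between 56.2 and 118 CPM. CHRM2, the muscarinic receptor, and ADORA1, an adenosine receptor that opens the same channel, were also higher in RemoLV than in Control, by log2 fold changes of 0.89 ± 0.19 (adjusted p = 0.000965) and 1.07 ± 0.20 (adjusted p = 0.000363).

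KCNJ8 encodes a pore subunit of ATP-sensitive potassium channels, known above all from vascular smooth muscle and pericytes. It was lower than in Control in 3 of the 4 other groups. It stood at 139, 147 and 141 CPM in Control, 85.8, 105, 108, 103 and 114 in DOX, 88.8, 132, 133, 98.1 and 88.7 in MYO, and 72.7, 83.9 and 65.2 in RemoLV, and none of these 3 groups overlapped with Control. The log2 fold changes were -0.46 ± 0.14 in DOX (adjusted p = 0.015), -0.40 ± 0.14 in MYO (adjusted p = 0.0326) and -0.94 ± 0.16 in RemoLV (adjusted p = 0.000159). The call in MYO was lost when 1 of several libraries was left out, with adjusted p up to 0.0772. Hyper, at 126, 157 and 124 CPM, overlapped with Control. The 10 markers of smooth muscle and pericytes summed to 866 to 1149 CPM in RemoLV and 1076 to 1144 CPM in Control. ABCC9, the sulfonylurea receptor that joins KCNJ8, was lower in DOX (log2 fold change -0.43 ± 0.13, adjusted p = 0.012) and MYO (-0.72 ± 0.13, adjusted p = 0.00027) but was not called in RemoLV (-0.32 ± 0.14, adjusted p = 0.071), and ABCC8, the other receptor of the family, was higher in RemoLV (3.39 ± 0.59, adjusted p = 0.000173).

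The delayed rectifiers end the action potential: KCNH2 carries the rapid and KCNQ1, with its beta subunit KCNE1, the slow current. KCNQ1 was higher than in Control in 3 groups, and these did not overlap with Control. It stood at 71.7, 67.5 and 65.8 CPM in Control, 121, 108, 116, 88.4 and 104 in DOX, 96.9, 101, 103, 102 and 105 in MYO, and 133, 115 and 113 in RemoLV. The log2 fold changes were 0.65 ± 0.10 (adjusted p = 6.95e-05), 0.58 ± 0.10 (adjusted p = 0.000206) and 0.81 ± 0.11 (adjusted p = 1.29e-05). Each of the 3 Hyper libraries, at 77.6, 78.2 and 88.1 CPM, also lay above Control, but the difference did not pass the adjusted test (log2 fold change 0.25 ± 0.11, adjusted p = 0.236).

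KCNE1 did not move with KCNQ1. It stood at 70.9, 58.6 and 62.0 CPM in Control and 10.3, 17.5 and 25.9 CPM in RemoLV, which did not overlap (log2 fold change -1.84 ± 0.25, adjusted p = 1.99e-05), and at 43.9 to 84.3 CPM in all libraries of DOX, MYO and Hyper. In RemoLV the beta subunit was thus lower while its pore subunit was higher. KCNE3, another partner of KCNQ1, was higher after both drugs, at 4.43 to 9.33 CPM in DOX and 5.61 to 9.17 CPM in MYO against 1.12, 4.69 and 2.12 CPM in Control (log2 fold changes 1.34 ± 0.35, adjusted p = 0.00554, and 1.41 ± 0.35, adjusted p = 0.00395). Only 1 of the 10 drug libraries lay below Control 2. KCNE3 in Hyper stood at 3.50, 5.34 and 5.97 CPM and passed the test only without Control 2 (log2 fold change 1.60, adjusted p = 0.0073, against 0.88 ± 0.38, adjusted p = 0.243, with it). In RemoLV, KCNE3 stood at 2.89, 4.57 and 3.92 CPM, overlapped with Control and was not called. KCNE4, at 0.80 to 2.54 CPM, passed no test.

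KCNH2 was higher after both drugs, at 85.8, 65.8, 84.0, 97 and 114 CPM in DOX and 96.7, 105, 97.5, 82.7 and 97.4 in MYO against 62.6, 64.8 and 56.7 in Control, without overlap. The log2 fold changes were 0.54 ± 0.17 (adjusted p = 0.0158; 0.0735 without Control 3) and 0.64 ± 0.17 (adjusted p = 0.00557). In RemoLV it stood at 61.8, 39.7 and 58.9 CPM and overlapped with Control. It was lower there than in Hyper (log2 fold change -0.55 ± 0.19, adjusted p = 0.0281), a call that was lost without any 1 of 3 libraries (adjusted p up to 0.147, without RemoLV 2).

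Several other voltage-gated genes were higher in RemoLV than in Control. KCNQ5, a relative of KCNQ1 known from smooth muscle and neurons, reached 5.77, 1.80 and 6.78 CPM, against 0.353 to 0.597 CPM in Control (log2 fold change 3.43 ± 0.53, adjusted p = 5.34e-05). KCNH7, a relative of KCNH2 known mainly from the nervous system, had no count in any Control, MYO or Hyper library and 2 counts in all of DOX, but 4.15, 1.58 and 8.47 CPM in RemoLV. It was therefore at least 70.1-fold higher in RemoLV than in Control, with a floor of 3 counts over the Control group. The silent subunits KCNS1, KCNS3 and KCNG2, which alter other channels and form none alone, were called higher too, by log2 fold changes of 3.82 ± 0.69 (adjusted p = 0.000234), 2.38 ± 0.76 (adjusted p = 0.0152) and 1.30 ± 0.50 (adjusted p = 0.0405). The calls of KCNS3 and KCNG2 were lost without any 1 of 2 and 4 libraries, RemoLV 3 foremost, where the log2 fold changes were 1.18 (adjusted p = 0.204) and 0.84 (adjusted p = 0.215). KCNS3 stood at 1.20, 0.733 and 4.90 CPM in RemoLV, and KCNG2, at 0.844, 1.80 and 2.94 CPM, overlapped with Control. In all, 8 of 12 tested voltage-gated genes were called higher, where 23.1% of all genes were, and none lower, where 24% were. KCNH7, which passed the filter through RemoLV, is 1 of the 8. KCNC4 (log2 fold change -1.67 ± 0.77, adjusted p = 0.0841) and KCNA4 (-0.63 ± 0.47, adjusted p = 0.285) had negative values and were not called. Markers of Schwann cells and nerve summed to 22.4 to 57 CPM in RemoLV and 10.3 to 22.7 CPM in the other groups, and their part in these values was not tested.

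KCNS1 was also higher after both drugs. It rose from 0.0746, 0.237 and 0.0705 CPM in Control to 0.367 to 1.53 CPM in DOX and 0.951 to 2.16 CPM in MYO (log2 fold changes 2.86 ± 0.67, adjusted p = 0.00266, and 3.27 ± 0.67, adjusted p = 0.000883). This rests on few counts, 1 to 4 per Control library. KCNC4 was lower, at 0.183 to 0.424 CPM in DOX and 0 to 0.871 CPM in MYO. Its Control libraries were far apart, at 1.94, 0.237 and 3.10 CPM, and without Control 3 adjusted p was 0.0945 in DOX and 0.11 in MYO. KCNA4, a subunit of the transient outward current, was lower in MYO (log2 fold change -1.39 ± 0.44, adjusted p = 0.016; 0.0777 without Control 3). It stood at 1.11 CPM in MYO 1 and 0.208 to 0.433 CPM in the 4 other MYO libraries, against 0.821 to 1.55 CPM in Control. KCNA7, of the same family, passed no test, with 0 to 0.959 CPM over all libraries.

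KCNIP2, the beta subunit that brings the channel of the transient outward current to the membrane, was the accessory gene with the largest called difference between RemoLV and Control. It stood at 284, 245 and 278 CPM in Control and at 47.1, 29.1 and 28.2 CPM in RemoLV (log2 fold change -2.95 ± 0.32, adjusted p = 1.56e-06). The drug groups, at 168 to 391 CPM in DOX and 178 to 434 CPM in MYO, lay on both sides of Control, and Hyper, at 300, 335 and 314 CPM, lay above it without passing the test (log2 fold change 0.23 ± 0.29, adjusted p = 0.701). KCND3, a pore subunit of this current, stood at 0.281, 1.01 and 1.43 CPM in RemoLV and at most 0.452 CPM elsewhere and was not tested. KCNAB2, a cytoplasmic beta subunit, was higher in DOX (2.38 to 4.64 CPM), MYO (2.54 to 3.17 CPM) and RemoLV (2.96, 2.20 and 2.67 CPM) than in Control (1.12, 1.19 and 1.13 CPM), without overlap. Its log2 fold changes were 1.64 ± 0.25, 1.32 ± 0.25 and 1.18 ± 0.27, with adjusted p of 8.84e-05, 0.000552 and 0.00189. Hyper, at 1.24, 1.81 and 2.08 CPM, also lay above Control without passing the test (log2 fold change 0.57 ± 0.28, adjusted p = 0.289). KCNAB1 and KCNAB3, of the same family, passed no test.

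**Figure D2:**
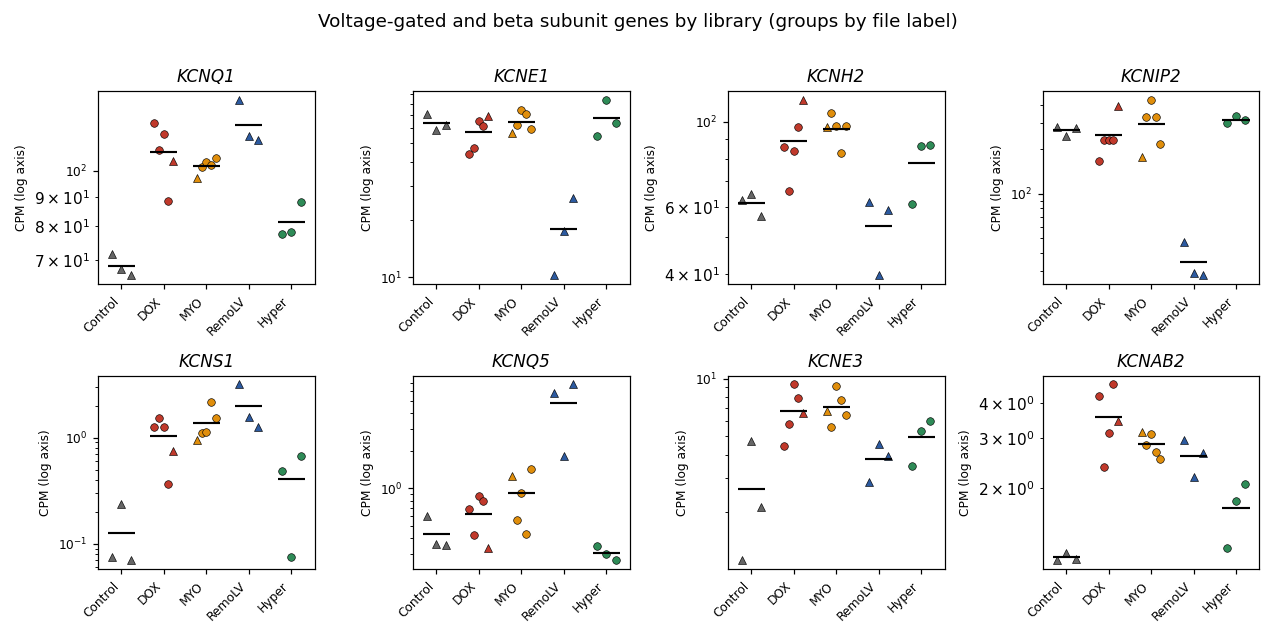
CPM of 4 voltage-gated and 4 beta subunit genes (log axes) in each library, with groups by file label on the x axis and a bar at each group mean; triangles mark the 8 libraries that have another group in the authors' table. KCNE1 and KCNIP2 are lowest in RemoLV, while KCNQ1 and KCNAB2 lie above Control in all 4 other groups.

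Two-pore channels carry background potassium currents, and KCNK3, also known as TASK-1, is an atrial member of this class in the human heart. KCNK3 stood at 78.2, 47.9 and 69.8 CPM in RemoLV and at 0 to 0.999 CPM in the 16 other libraries. The Control libraries held 9 of its counts in total and the RemoLV libraries 2744, and the log2 fold change was 8.26 ± 0.62. KCNK3 passed the filter on low counts only through the RemoLV libraries, so no p is given. KCNK6 was higher than in Control after both drugs and in RemoLV. It stood at 0.224, 0.594 and 0.353 CPM in Control, 0.55, 0.978 and 0.738 in Hyper, 2.30, 1.04, 2.89, 3.38 and 2.12 in MYO, 4.31, 4.5, 3.33, 2.93 and 2.86 in DOX, and 6.76, 8.23 and 11.2 in RemoLV. MYO and DOX overlapped in this order, as did Control and Hyper. The log2 fold changes of KCNK6 against Control were 3.14 ± 0.40 in DOX (adjusted p = 1.76e-05), 2.52 ± 0.41 in MYO (adjusted p = 0.000134) and 4.42 ± 0.43 in RemoLV (adjusted p = 4.75e-07).

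KCNK12 had no count in Control, 39 counts over the 5 DOX and 38 over the 5 MYO libraries, and it was at least 8.19-fold and 8.41-fold higher than in Control, with a floor of 3 counts over the Control group. Within the drug groups it ranged from 0.0624 to 1.53 CPM. KCNK12 would not have passed the filter without both drug groups, so no p is given. In DOX its call was lost without Control 3. KCNK2, a channel opened by stretch, stood at 1.55, 0.564 and 0.802 CPM in RemoLV against 0.344, 0.15 and 0.067 CPM in Hyper (log2 fold change 2.32 ± 0.71). It would not have passed the filter without RemoLV, so no p is given, and its call was lost without any 1 of 3 libraries. KCNK7, which would not have passed the filter without Hyper, stood at 0.275, 0.828 and 1.27 CPM there and 0.0704, 0.0564 and 0.267 CPM in RemoLV (log2 fold change -2.65 ± 0.64). It was called in no other comparison by file label, except higher in Hyper than in Control without Hyper 1 (log2 fold change 2.04).

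**Figure D3:**
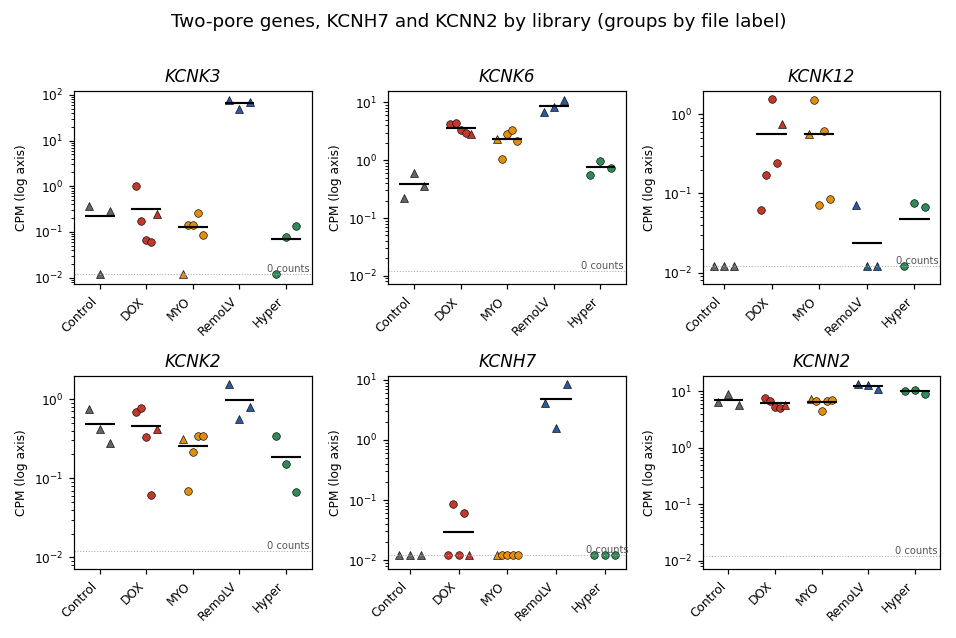
CPM of 4 two-pore genes, KCNH7 and KCNN2 (log axes) in each library, with groups by file label on the x axis and a bar at each group mean above 0; libraries with 0 counts are drawn on the dotted line, and triangles mark the 8 libraries that have another group in the authors' table. KCNK3 and KCNH7 are high in the 3 RemoLV libraries, and KCNK12 has counts in all 10 drug libraries and none in Control.

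Calcium-activated channels open when calcium rises in the cell. KCNN2, of the small-conductance class, stood at 13.4, 13.0 and 11 CPM in RemoLV and 10.2, 10.8 and 9.12 in Hyper, against 6.42, 8.85 and 5.85 in Control. Both groups lay above Control without overlap, but only RemoLV passed the test (log2 fold change 0.82 ± 0.20, adjusted p = 0.00294, and 0.50 ± 0.20, adjusted p = 0.214, in Hyper; 0.0283 without Control 2). KCNN3 was higher in DOX (log2 fold change 1.97 ± 0.67, adjusted p = 0.0258) and MYO (1.93 ± 0.68, adjusted p = 0.0283). It had 2 to 5 counts per Control library, and each call was lost without any 1 of 3 libraries (adjusted p up to 0.0911 and 0.0985, without Control 2). KCNMA1, the large-conductance channel, was higher in RemoLV, at 3.10, 2.93 and 2.94 CPM against 1.79, 1.13 and 1.48 CPM (log2 fold change 1.03 ± 0.41, adjusted p = 0.0462). This call was lost without any 1 of the 6 libraries, with adjusted p of 0.0558 to 0.12. KCNMA1 and KCNN3 each overlap another annotated gene on their strand. Its beta subunits KCNMB1 and KCNMB4 passed no test.

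The comparisons with Control share the 3 Control libraries, so their counts are set side by side and not against each other. In RemoLV, 16 of 36 tested members were called higher, where 23.1% of all genes tested were, and 5 were called lower, where 24% were. The 16 include KCNH7 and KCNK3, which passed the filter only through RemoLV and had to differ, so this count supports nothing about the members. In DOX, 11 were higher (21% of all genes) and 2 lower (21.1%), and in MYO 11 were higher (20.7%) and 3 lower (21.7%). Without Control 3, the counts in DOX became 7 higher and 1 lower, and no member was called lower in MYO. The median log2 fold change of the members was 1.02 in RemoLV, 0.31 in DOX and 0.20 in MYO, and over all genes tested 0.02, 0.03 and 0.02. By class in RemoLV, 3 inward rectifiers were higher and 3 lower, 8 voltage-gated genes higher, 2 two-pore genes higher, 2 calcium-activated genes higher, and 1 beta subunit higher and 2 lower. In DOX, 4 voltage-gated, 2 two-pore, 2 beta, 2 inward rectifier and 1 calcium-activated gene were higher. Counted as DEGs, which asks for a log2 fold change of 2 or more in size besides the adjusted p, 9 members were higher in RemoLV (4.12% of all genes) and 3 lower (2.22%). Among the higher DEGs were KCNH7, KCNJ12, KCNJ5, KCNK3, KCNK6, KCNQ5, KCNS1 and KCNS3, and the lower ones KCNIP2, KCNJ2 and KCNJ4. DOX held 3 higher DEGs (1.59%), KCNK12, KCNK6 and KCNS1, and MYO held 4 (1.23%), these among them. KCNC4 was the lower DEG of both drugs (1.17% and 1.24% of all genes). KCNK12 and KCNC4, like KCNH7 and KCNK3 in RemoLV, had to differ by the filter, so neither these counts nor those of all calls after the drugs support anything about the members.

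**Figure D4:**
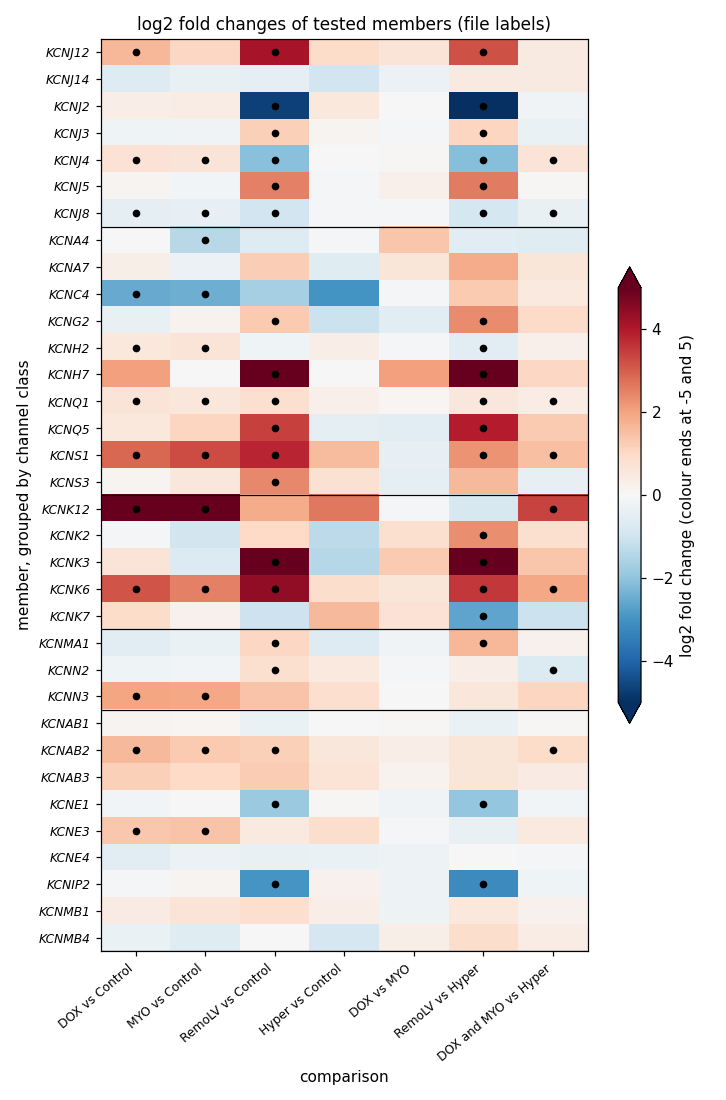
The log2 fold change (colour, ending at -5 and 5) of 34 tested members, grouped by channel class, in 7 comparisons by file label; a dot marks an adjusted p of at most 0.05. The columns of RemoLV hold 19 dots each, and those of Hyper against Control and DOX against MYO none.

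Between Hyper and Control no member was called by edgeR or DESeq2, as for all genes tested (0%), while 5 members, KCNC4, KCNE3, KCNK7, KCNN2 and KCNQ1, had an unadjusted p under 0.05 (17.8% of all genes). Without Control 2, KCNE3, KCNJ2 and KCNN2 were called higher and KCNC4 lower, and without Hyper 1, KCNK7 was called higher. The share of all genes called in these fits is not given, so the calls are descriptions and no result about the members. KCNC4 and KCNK7 also had to differ by the filter. DOX and MYO were compared to ask whether the liposomal form differed from the free drug. No member was called by edgeR or DESeq2 (0% of all genes), with 4 members, KCNA4 and KCNK6 among them, under an unadjusted p of 0.05 (7.08% of all genes).

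RemoLV was set against Hyper to compare the models of infarction and of pressure overload. The wall sampled, posterior in RemoLV and anterior in Hyper, cannot be told apart from the model in this comparison. MYL4 stood at 7169 CPM in RemoLV against 1.02 in Hyper, and MYL2 at 58 against 15896 CPM. The part of these marker differences in the values below was not tested. By file label, 14 members were higher in RemoLV (17% of all genes) and 7 lower (18.6%), of which 9 and 4 were DEGs (3.51% and 1.42%). KCNH7, KCNK2 and KCNK3 among the higher and KCNK7 among the lower had to differ by the filter, so these counts are descriptions. Among them were KCNK3, with 3 counts over the Hyper group against 2744, KCNH7, at least 67.5-fold higher, KCNQ5 (log2 fold change 3.93 ± 0.55, adjusted p = 2.91e-05), KCNK6 (3.52 ± 0.40, adjusted p = 2.91e-06) and KCNG2 (2.36 ± 0.55, adjusted p = 0.00271). KCNIP2 was lower by -3.18 ± 0.32 (adjusted p = 9.68e-07) and KCNE1 by -1.92 ± 0.25 (adjusted p = 1.7e-05). Under the table names this contrast compares the libraries labelled Control with Hyper, and no member and no gene was called by edgeR (0% of all genes), with 5 members under an unadjusted p of 0.05 (18.2% of all genes). By DESeq2, too, none was called between these libraries.

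Since the libraries of Hyper belong to the same group in both deposits and DOX and MYO exchange 1 library with each other, DOX and MYO together against Hyper sets the same 10 libraries against the same 3 under both sets of names. Here 6 members were higher after the drugs (15.8% of all genes) and 2 lower (16.9%), and the table names gave the same 8 members, as the shared libraries fix. KCNK6 (log2 fold change 1.93 ± 0.35, adjusted p = 0.000444), KCNAB2 (0.91 ± 0.22, adjusted p = 0.00489) and KCNQ1 (0.36 ± 0.09, adjusted p = 0.00454) were higher, and all 10 drug libraries lay above all 3 Hyper libraries for each of them. KCNS1 and KCNJ4 were also called higher, with adjusted p of 0.0354 and 0.0385, and so was KCNK12, which passed the filter only through the drug libraries. For these the groups overlapped and the calls were lost without some single libraries, with adjusted p up to 0.165 for KCNS1 and 0.262 for KCNJ4. KCNN2 was lower after the drugs (log2 fold change -0.67 ± 0.16, adjusted p = 0.00368) without overlap, and KCNJ8 lower by -0.36 ± 0.13 (adjusted p = 0.0368), a call lost without any 1 of 5 libraries (adjusted p up to 0.24, without Hyper 2). Without Hyper 1 or Hyper 2, 3 members were called higher. The earlier origin of the data, Y-linked genes and fibroblast markers (4823 to 7416 CPM after the drugs against 1693 to 4082 CPM in Hyper) also separate these 2 sets of libraries, as do markers of all cardiomyocytes (28700 to 35090 against 37240 to 37710 CPM). MYL4, MYL7 and the ventricular marker IRX4 were called higher after the drugs. Their part in these values was not tested.

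With the table names, the direction of every difference between RemoLV and Control above is turned, since the libraries called RemoLV and Control change places. KCNJ2 then stood at a log2 fold change of 4.69 ± 0.41 and KCNK3 at -8.26 ± 0.65 in RemoLV. The 3 libraries that stand apart then serve as Control in all 4 comparisons, which share them. KCNJ2 stood at log2 fold changes of 4.95 ± 0.41 (DOX), 5.11 ± 0.41 (MYO) and 5.21 ± 0.42 (Hyper). The counts under the table names were 7 higher and 12 lower in DOX (15% and 14.6% of all genes), 7 and 13 in MYO (14.8% and 14.4%), 5 and 16 in RemoLV (24% and 23.2%) and 7 and 14 in Hyper (18.7% and 17.2%). KCNK6 in DOX was higher than Control by file label and lower by table name (log2 fold change -1.33 ± 0.31, adjusted p = 0.00353). KCNJ12 in DOX turned lower in the same way. KCNQ1 in DOX, called higher by file label, was not called (-0.18 ± 0.10, adjusted p = 0.173), and KCNAB2, KCNE3, KCNS1, KCNN3 and KCNK12 lost their calls in DOX as well. KCNH2 and KCNJ4 were higher than Control after both drugs under both sets of names, with log2 fold changes of 0.68 ± 0.16 and 2.80 ± 0.28 in DOX by table name, whereas KCNJ8 changed direction (0.41 ± 0.14). The Control of the table names, the 3 libraries that stand apart, held KCNJ4 at a mean of 45.1 CPM. By file label the calls of KCNJ4 after the drugs were lost without some single libraries.

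**Figure D5:**
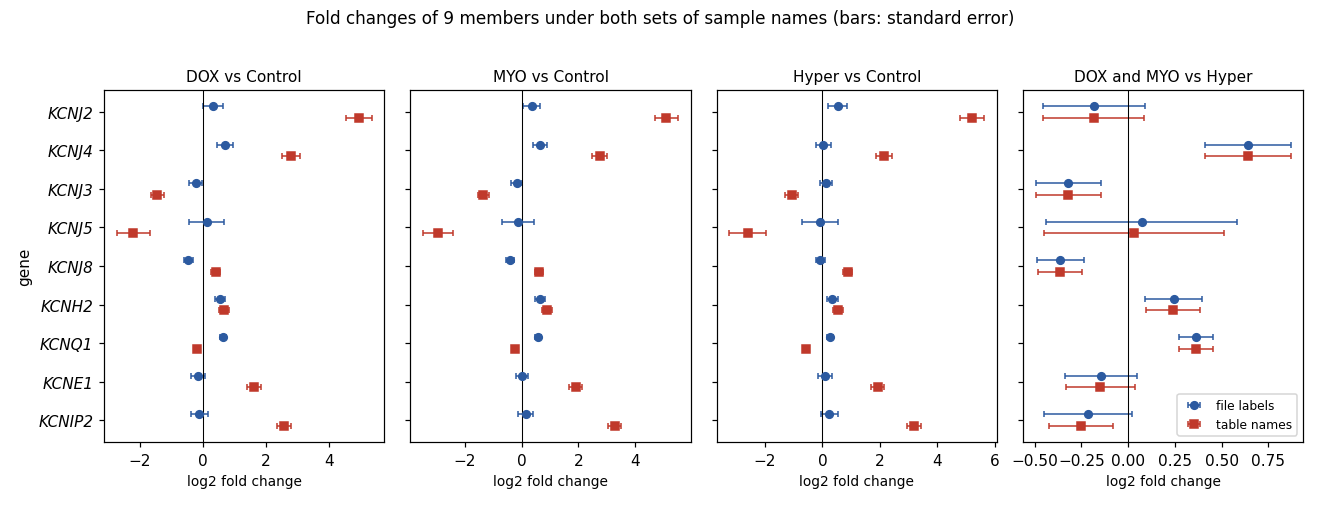
Log2 fold change (x axis, bars are standard errors) of the 9 members of highest level per length in Control, in 4 comparisons, with groups by file label (circles) and by table name (squares). The squares of the 3 comparisons with Control lie far from the circles for KCNJ2, KCNJ4, KCNJ5, KCNE1 and KCNIP2, and the pairs of DOX and MYO against Hyper, which use the same libraries, lie together.

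The partners of potassium channels without a KCN symbol were read from a list of 16 genes, of which 11 were tested. Against Control, RemoLV by file label held 8 higher and 2 lower partners, where 23.1% and 24% of all genes were called. Of the 8, 3 passed the filter only through RemoLV, HCN4 and DPP10 among them, and had to differ, so the count supports nothing. HCN4, a pacemaker channel of nodal cells, was at 2.46, 1.13 and 0.891 CPM in RemoLV and had no count in Control or Hyper. HCN2 and HCN3 were higher in RemoLV (log2 fold changes 1.18 ± 0.20 and 1.70 ± 0.31) and also in DOX (0.50 ± 0.18, adjusted p = 0.0344, and 1.19 ± 0.28, adjusted p = 0.0029) and MYO (0.46 ± 0.18, adjusted p = 0.0499, and 1.11 ± 0.28, adjusted p = 0.00476). AKAP9, the anchor that joins kinases to the KCNQ1 channel, was lower in DOX, MYO and RemoLV than in Control. It stood at 110, 131 and 114 CPM in Control and 125, 150 and 102 in Hyper, but 51.7 to 63.7 in DOX, 44.8 to 55.4 in MYO and 42.2 to 53.2 in RemoLV. Its log2 fold change for DOX and MYO against Hyper was -1.21 ± 0.11 (adjusted p = 1.65e-07), so that KCNQ1 was higher and its anchor lower in the same comparison. DLG1, a scaffold that binds inward rectifier and voltage-gated subunits, was lower in this comparison as well (log2 fold change -0.43 ± 0.12, adjusted p = 0.0095).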

How the data were processed

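Myocardial RNA of 19 pigs was sequenced, and the deposited files hold raw read counts per Ensembl gene, 1 file per pig, which the authors made with STAR and HTSeq 0.11.1 (union mode, reverse stranded) on Sscrofa11.1. The authors' table of comparisons holds their log2 fold changes and adjusted p-values from DESeq2, which were not used. Its gene symbols chose the members, and its sample columns of normalised values served only to match names to libraries by rank correlation (1.0 with the best column, at most 0.992 with the second).

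Counts were fitted in edgeR 4.0.16 (R 4.3.3, limma 3.58.1) with TMM factors, filterByExpr and 1 quasi-likelihood model of the 5 groups without a block, and adjusted by the Benjamini-Hochberg method over 13552 genes. The standard error is the absolute log2 fold change divided by the square root of F. CPM are counts as scaled by edgeR's cpm function to the TMM effective library size, with totals of 9527710 to 20370209 counts per library, and 3 counts over a group served as the floor for a group without counts. Separate animals were the replicates, and no 2 libraries agreed within sampling noise. The closest pair, Hyper 1 and Control 2, had a mean chi-square of 11.4 per gene. On simulated counts of 13552 genes, the model for RemoLV against Control recovered 60% of genes changed by a log2 fold change of 1 and 88% of those changed by 2.

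The members and gene lists were chosen with earlier results of these data known. Genes were named from a list of cardiac potassium current genes and, per comparison, as the 3 members with the largest positive and negative called changes. KCNG2, KCNS3, KCNJ14, KCNA7, KCNAB3 and KCNMB4, and the values of other members in comparisons where the rule did not pick them, were named after they were seen. Some potassium channel genes and sequences are not reported here. DESeq2 1.42.0, other size factors, other filters, a replicate block, the compared groups alone, the table names and leaving out libraries were the alternatives. Pore codons were read with Python 3.11.15 from RefSeq models.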

Additional observations from a re-analysis of the deposited data

Results flagged for a closer look

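Among 55 sets of 5 values, those of the named members in DOX and in MYO, 5 held, by Dixon's gap, a library far from the other 4, where chance gives about 1 in 20. KCNA4 stood at 1.11 CPM in MYO 1 against 0.208 to 0.433 CPM in the other MYO libraries. KCNJ3 stood at 79.7 CPM in MYO 1 against 63.0 to 67.7 CPM. KCNIP2 stood at 391 CPM in DOX 5 against 168 to 232 CPM in the other DOX libraries. MYO 1 and DOX 5 are the libraries exchanged in the authors' table. KCNK3 stood at 0.999 CPM in DOX 1 against 0.0611 to 0.252 CPM, and KCNN2 at 4.58 CPM in MYO 3 against 6.75 to 7.37 CPM.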

How the results depend on the processing

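Of 63 calls of genes named by the rule, 45 held without any 1 library and 18 were lost, and no called change was reversed except by the table names. Calls outside the rule are not among the 63, and those of KCNG2 and KCNS3 in RemoLV against Control were lost too. The counts below describe only how the calls of members move, as the shares of all genes called under these settings are not given. The shares given above do not apply to them, apart from those of the table names. With at least 10 counts in every library, which left 15 members, DOX held 5 higher and 1 lower, MYO 6 and 1, and 6, 4 and 3 were higher in RemoLV against Control, RemoLV against Hyper and the drugs against Hyper. Without a filter (48 members), 8 were lower in RemoLV. With the table names, the counts of higher and lower members against Control were 7 and 12 in DOX, 7 and 13 in MYO, 5 and 16 in RemoLV and 7 and 14 in Hyper, and 0 and 0 in RemoLV against Hyper. With only the compared groups, 1 was lower in MYO. The replicate block left 1 lower in DOX, 0 in MYO and 1 for the drugs against Hyper. The replicate numbers do not pair the pigs, since same-numbered libraries correlated at -0.246 to 0.242 (median 0.00687, 32 pairs). Leaving out 1 library gave 7 to 11 higher and 1 to 2 lower in DOX, 9 to 10 and 0 to 3 in MYO, 13 to 16 and 5 to 6 in RemoLV, 0 to 3 and 0 to 1 in Hyper, 0 and 0 between DOX and MYO, 13 to 15 and 6 to 7 in RemoLV against Hyper, and 3 to 6 and 1 to 3 for the drugs against Hyper. Other settings kept these counts within 1.5 times. The causes of these differences were not tested beyond the number of members or libraries left. KCNS1 and KCNN3 had at most 5 counts in any Control library.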
